A study of Mus musculus with 12 samples.

Results

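The genes described here are 10 smooth muscle contractile genes: Acta2, Actg2, Tagln, Cnn1, Cnn2, Myl9, Tpm1, Tpm2, Lmod1 and Myh11. They were picked by symbol from a table of 55487 mouse genes, and each symbol was found in 1 row. The set was drawn around Acta2, since the same libraries showed far more of its transcript under shFto than under shScram at mitotic clonal expansion (MCE). The MCE values are therefore given as a description without a test, and the tests rest on contrasts that hold no MCE library. The MCE libraries still enter the spread that these tests share. Only the alternative fits on the libraries of a contrast alone hold none of them.

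Smooth muscle cells shorten when myosin pulls on filaments of smooth muscle actin. The filaments are lined by tropomyosin and crossed by small actin-binding proteins of the transgelin and calponin families, and the light chain of myosin switches the motor on when it is phosphorylated. Serum response factor (SRF) switches on many of these genes by binding a short DNA element, the CArG box, together with cofactors of the myocardin family. Outside muscle, Acta2 and Tagln are known as genes that activated fibroblasts and myofibroblasts express, and cultured preadipocytes carry actin stress fibers that are lost as the cells round up into adipocytes.

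The cells were 3T3-L1, a mouse embryonic fibroblast line that turns into adipocytes when confluent cultures receive IBMX, dexamethasone and insulin (MDI). All cells were infected with a lentivirus and selected with puromycin, and they carried either shScram, a scrambled hairpin, or shFto, a hairpin that targets the RNA demethylase gene Fto. RNA of 3 stages was sequenced, named preadipocytes (Pre), MCE and differentiation (Diff), with 2 libraries in each of the 6 groups. Preadipocytes had not received MDI, MCE cells were in the expansion phase that MDI starts, and Diff cells had gone on to insulin medium and are named mature adipocytes by the labels. The labels give the stages by name and not by hour, and more than a single Fto hairpin was made, so which of them these cells carried is not known here. For replicate 1 of shScram Diff the treatment entry names the knockdown while the title names shScram, and the title was followed. Nothing states that the libraries of a group came from separate cultures, so the p-values measure the spread between these libraries, which may be technical.

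Values are in TPM, a transcript abundance unit, which correct for gene length and set each library to the same total, so that levels of different genes can be compared. Sequencing depth is not kept by this unit and is unknown here. Between 20853 and 24018 genes were above 0 in a library. Fto, the targeted gene, lay between 52.7 and 73.5 TPM in the 6 shScram libraries and between 5.51 and 7.47 TPM in the 6 shFto libraries. The correlation between the libraries of a group across genes, which are not independent replicates, was 0.939 for shScram Pre and 0.990 to 0.993 for the others. Replicate 1 of shScram Pre stood apart from its partner in a way that followed transcript GC content. Spearman's rho of the difference with GC was -0.711 across genes, against -0.213 to 0.371 in the other groups. Most of the tested differences that rest on this library are given with and without it.

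The promoters were searched for the CArG box, the element through which SRF acts. RefSeq (GRCm38.p6) gave a promoter window, 250 bases before and 50 after the annotated start, for 7 of the 10 genes. A full CArG box, which has 6 central A or T letters, was found in the windows of Cnn2 and Myl9, and 1.63% of 32851 promoter windows hold one. With 1 central G or C allowed, Acta2 had 2 matches and Myl9 a further 1, and 9.98% of all windows hold a match of either kind. The MCAT letters CATTCC, searched on both strands, were found in the windows of Acta2, Tpm1 and Lmod1 and in 14.7% of all windows. The windows of Cnn1, Tpm1, Tpm2 and Lmod1 held no CArG match, and those of Cnn1 and Tpm2 held no MCAT match either. The 250 bases before the start are printed for the 3 genes with a CArG match and for Lmod1, whose levels went another way than those of Acta2. They read 5′ to 3′ on the strand of the gene, capitals mark CArG matches of 10 letters and MCAT matches of 6 letters, and a match is a description of letters and not a measured binding site.
Acta2 (chr19:34255374-34255623, minus strand): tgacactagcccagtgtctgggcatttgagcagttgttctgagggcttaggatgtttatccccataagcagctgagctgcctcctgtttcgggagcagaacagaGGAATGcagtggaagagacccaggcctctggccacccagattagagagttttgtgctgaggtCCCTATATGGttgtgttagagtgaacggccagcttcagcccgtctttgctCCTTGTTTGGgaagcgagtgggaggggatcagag
Myl9 (chr2:156775214-156775463, plus strand): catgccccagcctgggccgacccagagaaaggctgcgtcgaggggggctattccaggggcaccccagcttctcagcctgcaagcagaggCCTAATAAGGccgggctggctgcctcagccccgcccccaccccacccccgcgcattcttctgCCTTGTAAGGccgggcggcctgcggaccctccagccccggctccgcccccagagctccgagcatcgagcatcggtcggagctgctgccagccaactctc
Cnn2 (chr10:79988350-79988599, plus strand): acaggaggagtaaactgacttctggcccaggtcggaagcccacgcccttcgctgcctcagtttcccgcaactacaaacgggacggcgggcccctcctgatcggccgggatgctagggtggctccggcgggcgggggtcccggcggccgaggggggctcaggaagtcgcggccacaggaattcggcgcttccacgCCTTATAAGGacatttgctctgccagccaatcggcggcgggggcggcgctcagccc
Lmod1 (chr1:135324563-135324812, plus strand): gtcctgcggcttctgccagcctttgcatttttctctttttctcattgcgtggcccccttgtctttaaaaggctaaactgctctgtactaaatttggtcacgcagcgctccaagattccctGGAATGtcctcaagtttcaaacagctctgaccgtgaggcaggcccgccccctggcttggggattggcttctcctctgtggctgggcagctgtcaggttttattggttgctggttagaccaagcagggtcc

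In Acta2 the matches CCCTATATGG and CCTTGTTTGG begin 84 and 34 bases before the start, and the MCAT match begins 146 bases before it. The full CArG box of Cnn2, CCTTATAAGG, begins 56 bases before the start. In Myl9 the full box CCTAATAAGG begins 161 bases before the start and CCTTGTAAGG, with 1 central G, begins 99 bases before it.

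Reads of actin genes can be hard to tell apart, since mammals have 6 actins that are near copies. The coding bases 13 to 72 of Acta2 are set beside the same stretch of the other actins, from GENCODE M21 transcripts on GRCm38, with capitals where a base differs from Acta2.
Acta2: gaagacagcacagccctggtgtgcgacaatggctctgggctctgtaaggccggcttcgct
Actg2: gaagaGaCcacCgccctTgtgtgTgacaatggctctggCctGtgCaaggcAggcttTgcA
Acta1: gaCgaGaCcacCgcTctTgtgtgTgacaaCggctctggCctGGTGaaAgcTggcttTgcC
Actc1: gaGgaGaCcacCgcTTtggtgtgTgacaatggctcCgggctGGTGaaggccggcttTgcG
Actb: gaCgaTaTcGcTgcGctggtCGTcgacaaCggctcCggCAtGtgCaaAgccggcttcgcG
Actg1: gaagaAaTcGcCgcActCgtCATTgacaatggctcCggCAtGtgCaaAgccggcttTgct

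Actg2 differed from Acta2 at 11 of these 60 bases, Actc1 at 14, and Acta1, Actb and Actg1 at 17 each. Over the whole coding sequence, identity with Acta2 ran from 81.9% for Actg1 to 85.4% for Acta1 and was 84.4% for Actg2. Of all 50-base windows in the Acta2 transcripts, 0.326% also occur in another gene, and none of those of Actg2 do. Tagln differs here: 58.3% of its 50-base windows also lie in another annotated gene, mostly the antisense gene Gm48529 on the opposite strand (55.4%). Tagln also overlaps the end of Pcsk7, and the sources used here do not say if reads were counted by strand, so its levels are uncertain in this respect. Lmod1 overlaps the small nuclear RNA gene Gm22796 on the opposite strand. For Myh11 0.34% of the windows also occur in Myh9 or Myh10, and the other 6 members shared none.

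Of the 10 genes, 8 reached 1 TPM in no fewer than 2 libraries and were tested together with all 15968 genes that reached it. Differences are in log2(TPM + 1), where the added 1 makes changes of scarce transcripts look smaller than they are. A gene was called when the Benjamini-Hochberg adjusted p of limma, taken over all genes tested, was under 0.05. Cnn1 and Myh11 were below the limit and were not tested. In preadipocytes 5 of the 8 tested genes were higher in shFto than in shScram cells and 0 were lower, while 15.9% of all genes tested were higher and 12.3% lower. With replicate 1 of shScram Pre left out, 4 were higher and 1 was lower (median 0.70), against 16.1% and 12.9% of all genes. In Diff 4 were higher and 1 was lower, against 11.9% and 9.31% of all genes. The median difference over the 8 genes was 1.16 in preadipocytes (0.08 over all genes tested) and 0.76 at the differentiation stage (0.03 over all genes). For MCE it was 1.55 (0.05 over all genes). At MCE both shFto libraries were above both shScram libraries in 6 of the 8 tested genes, and in 41.1% of all genes tested. Lmod1 had both shFto libraries below both shScram libraries, and Tpm2 overlapped. The share of all genes without overlap in either direction was not counted, for MCE or for Pre and Diff. A log2 difference over 1 was seen in 4 members and in 5.24% of all genes tested. Since the set was chosen on this contrast, nothing is read from these MCE counts.

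**Figure D1:**
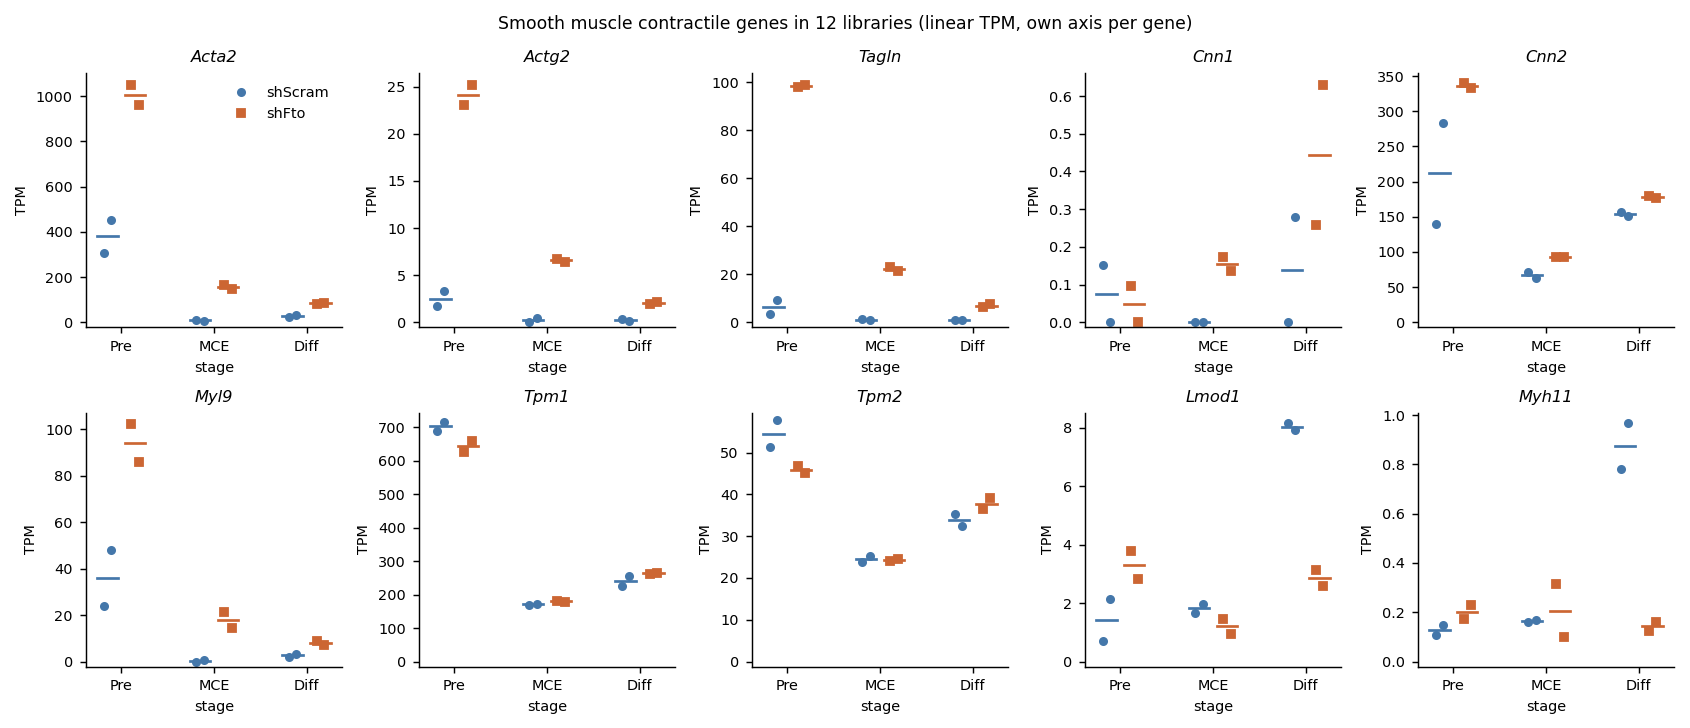
TPM of the 10 genes in the 12 libraries, by stage (Pre, MCE, Diff), on a linear axis of its own for each gene; circles are shScram libraries, squares are shFto libraries and bars are the means of 2 libraries. Acta2, Actg2, Tagln and Myl9 are higher in shFto at each stage and highest in preadipocytes, Tpm1 and Tpm2 lie close between the lines, and Lmod1 is highest in shScram at the differentiation stage (8.15 and 7.94 TPM).

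Acta2 (ENSMUSG00000035783, chr19:34241090-34255590, minus strand), the smooth muscle alpha-actin of vessel walls and myofibroblasts, was the most abundant of the genes that differed between the lines. In preadipocytes the shScram libraries held 306.7 and 452.5 TPM and the shFto libraries 1049 and 959.2 TPM. The shFto mean was 2.65-fold the shScram mean (log2 difference 1.43 ± 0.21 SE, limma adjusted p = 0.00245). The groups did not overlap, and the lower shFto library held 2.12-fold the TPM of the higher shScram library. The difference was 1.15 without replicate 1 of shScram Pre (limma adjusted p = 0.000799).

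At the MCE stage shScram cells held 8.93 and 6.90 TPM of Acta2, and shFto cells held 164.9 and 145.3 TPM. Acta2 had thus dropped to 2.08% of its preadipocyte mean in shScram cells and to 15.4% in shFto cells. This is the value on which the gene was chosen, with a log2 difference between the lines of 4.14. In Diff the shScram values were 23.3 and 30.5 TPM and the shFto values 82.6 and 83.9 TPM. The shFto mean was 3.09-fold that of shScram (log2 difference 1.61 ± 0.21 SE, limma adjusted p = 0.000831), again with no overlap. From MCE to Diff the shScram mean went up 3.40-fold and the shFto mean went down 1.86-fold, so the lines moved towards each other; these steps hold the MCE libraries and were not tested.

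Actg2 (ENSMUSG00000059430, chr6:83512905-83536265, minus strand), the smooth muscle gamma-actin of the gut wall, was far scarcer than Acta2. Preadipocytes held 1.72 and 3.27 TPM in shScram, against 23.1 and 25.2 TPM in shFto. The shFto libraries were all far above the control ones (log2 difference 2.88 ± 0.26 SE, limma adjusted p = 0.000237), and the linear means differed 9.68-fold. Leaving out replicate 1 of shScram Pre gave 2.56 (limma adjusted p = 8.86e-05). Of the MCE libraries, 1 of shScram was listed at 0 and the other held 0.496 TPM, while the shFto libraries held 6.70 and 6.45 TPM. The shScram Diff libraries held 0.375 and 0.121 TPM and the shFto Diff libraries 1.98 and 2.13 TPM. The log2 difference was 1.30 ± 0.26 SE there (limma adjusted p = 0.00748), while the linear means differed 8.30-fold. At such low levels the log2 value depends on the added 1, and over the alternatives it ran from 1.15 to 2.74.

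Actb and Actg1, the cytoplasmic actins of every cell, made up most of the actin transcripts in all 12 libraries. The share of Acta2 in the summed TPM of the 6 actins was 9.06% and 9.28% in shScram preadipocytes and 18.8% and 17.9% in shFto preadipocytes. It was 0.412% and 0.304% against 5.16% and 4.38% at the MCE stage. In Diff it was 1.04% and 1.38% against 3.08% and 2.98%. In Pre and Diff the shFto shares lay above the shScram shares without overlap. The MCE shares hold the values on which Acta2 was chosen. Acta1 and Actc1, the actins of skeletal and cardiac muscle, were near or at 0, with group means of Acta1 up to 0.775 TPM and Actc1 listed at 0 in all libraries.

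Tagln (ENSMUSG00000032085, chr9:45929619-45936058, minus strand) encodes transgelin, also known as SM22-alpha, an actin-binding protein. It had the largest preadipocyte difference of the 8 tested genes. The shScram libraries held 3.65 and 9.20 TPM, and the shFto libraries held 98.0 and 98.8 TPM. The log2 difference was 3.85 ± 0.32 SE (limma adjusted p = 0.000181), and the linear means differed 15.3-fold. It was 3.28 without replicate 1 of shScram Pre (limma adjusted p = 4.21e-06). The MCE values were 1.36 and 0.741 TPM in shScram, against 23.0 and 21.3 TPM in shFto. In Diff they were 0.761 and 1.04 TPM against 6.52 and 7.43 TPM (log2 difference 2.07 ± 0.32 SE, limma adjusted p = 0.00211). The lines did not overlap at any stage, and within shFto cells the level went down at each step.

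Tagln2, a relative that most cells express, also stood higher in shFto cells, by 0.96 ± 0.21 SE in preadipocytes (limma adjusted p = 0.0139; 0.56 without replicate 1 of shScram Pre, limma adjusted p = 0.000609) and by 1.44 ± 0.21 SE at the differentiation stage (limma adjusted p = 0.00165). The share of Tagln in the summed TPM of the 3 transgelins was 3.96% and 5.65% in shScram preadipocytes and 29.6% and 30.7% in shFto preadipocytes. In Diff it was 0.815% and 1.11% in shScram and 2.58% and 2.77% in shFto. Transgelin transcripts of shFto preadipocytes thus held a smooth muscle fraction that was small in the other groups.

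Calponins bind actin and tropomyosin and slow the myosin motor. Cnn1 (ENSMUSG00000001349, chr9:22099216-22109630, plus strand), the calponin of differentiated smooth muscle, never reached 1 TPM and was highest in 1 shFto Diff library at 0.629 TPM. Cnn2 (ENSMUSG00000004665, chr10:79988584-79996062, plus strand), which non-muscle cells also express, was abundant. Preadipocytes held 139.4 and 284.0 TPM in shScram, against 340.2 and 333.0 TPM in shFto. The shScram libraries lay far apart from each other and the difference was not called (log2 difference 0.76 ± 0.26 SE, limma adjusted p = 0.060). Without replicate 1 of shScram Pre it was 0.24 (limma adjusted p = 0.055), and without replicate 2 it was 1.27 and called (limma adjusted p = 6.68e-07), so 1 library sets its size.

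Cnn2 at MCE stood at 71.7 and 63.1 TPM in shScram, against 93.3 and 92.7 TPM in shFto. Diff libraries held 156.2 and 150.5 TPM in shScram, against 179.0 and 176.5 TPM in shFto, a log2 difference of 0.21 ± 0.26 SE (limma adjusted p = 0.63). The 4 Diff libraries did not overlap between the lines, though the difference was small beside the spread that the fit took from all groups. With either shScram Pre library left out of the fit the same difference was called (limma adjusted p = 0.0298 and 0.030). Cnn3, the third calponin, fell in shFto cells by 0.58 ± 0.12 SE in preadipocytes (limma adjusted p = 0.00947, and 0.0021 without replicate 1 of shScram Pre, where it fell by 0.47) and by 0.57 ± 0.12 SE at the differentiation stage (limma adjusted p = 0.00898). The share of Cnn2 among the 3 calponins was 32.6% and 30.4% in shScram Diff and 45.0% and 43.3% in shFto Diff.

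Myl9 (ENSMUSG00000067818, chr2:156775420-156781658, plus strand) encodes the regulatory light chain of smooth muscle myosin, the chain whose phosphorylation starts contraction. Preadipocytes held 23.8 and 47.9 TPM in shScram, against 102.0 and 85.8 TPM in shFto. The log2 difference was 1.44 ± 0.35 SE (limma adjusted p = 0.0187), and the groups did not overlap although the 2 shScram libraries differed widely. Without replicate 1 of shScram Pre it was 0.95 (limma adjusted p = 0.0366). At the MCE stage 1 shScram library was listed at 0 and the other held 0.525 TPM, against 21.3 and 14.6 TPM in shFto. Myl9 was thus nearly gone from shScram cells at a stage where shFto cells kept 19.1% of their preadipocyte mean. The Diff values were 2.1 and 3.21 TPM in shScram, against 8.98 and 7.26 TPM in shFto (log2 difference 1.33 ± 0.35 SE, limma adjusted p = 0.0258).

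The light chains of non-muscle myosin, Myl12a and Myl12b, were more abundant than Myl9 in every group by their means. Myl9 made up 2.97% and 7.80% of the summed TPM of these 3 light chains in shScram preadipocytes and 13.8% and 11.4% in shFto preadipocytes. In Diff it made up 0.598% and 1.08% against 2.17% and 1.77%. Myh11 (ENSMUSG00000018830, chr16:14194535-14291372, minus strand), the heavy chain that defines mature smooth muscle, stayed under 1 TPM in all libraries. Its highest values were 0.783 and 0.967 TPM in shScram Diff, above the 0.124 and 0.162 TPM of shFto Diff, and it made up under 1% of the summed TPM of Myh9, Myh10 and Myh11. Libraries with many Myl9 transcripts, such as those of shFto preadipocytes, thus held almost none of Myh11 (0.201 TPM as the mean).

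**Figure D2:**
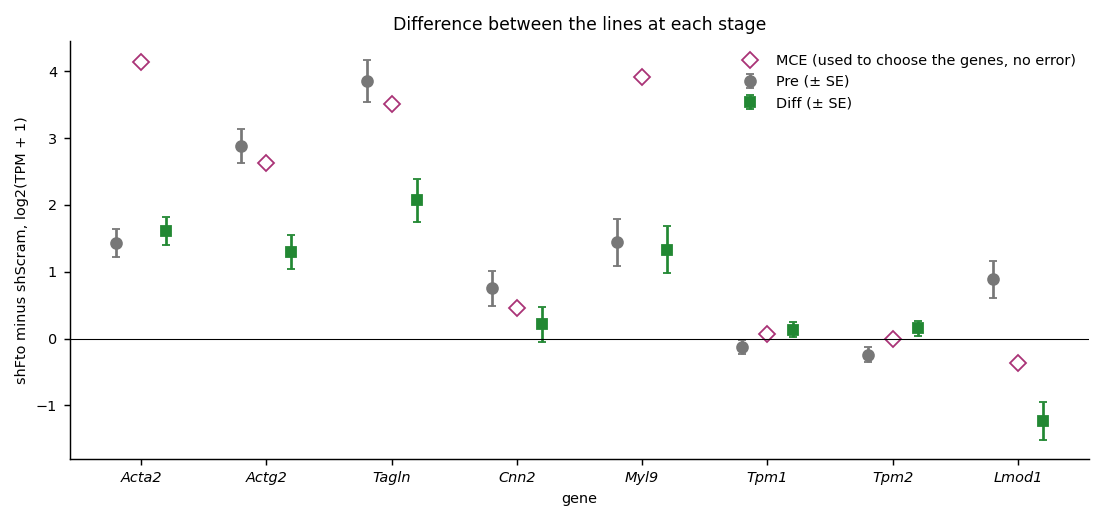
Difference between the lines (shFto minus shScram, log2(TPM + 1)) for the 8 tested genes; filled circles (Pre) and squares (Diff) carry SE bars from limma, and open diamonds (MCE) are values without error, since they were used to choose the genes. Acta2, Actg2, Tagln and Myl9 lie above 1 at each stage, Tpm1 and Tpm2 lie near 0, and Lmod1 goes from 0.89 in Pre to -1.23 in Diff.

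Tropomyosins coil along the actin filament and control access of myosin to it. Tpm1 (ENSMUSG00000032366, chr9:67022590-67049406, minus strand) held 689.3 and 717.2 TPM in shScram, against 627.7 and 660.6 TPM in shFto preadipocytes. It held 169.0 and 172.4 TPM against 181.3 and 178.3 TPM at the MCE stage. In Diff it held 224.7 and 255.3 TPM against 262.7 and 264.1 TPM. The differences between the lines were small and not called (log2 difference -0.13 ± 0.11 SE in Pre, limma adjusted p = 0.382, and 0.14 ± 0.11 SE in Diff, limma adjusted p = 0.424), and the Pre value was -0.16 without replicate 1 of shScram Pre (limma adjusted p = 0.208). Gene totals do not separate the smooth muscle transcript of Tpm1 from its other splice forms.

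Tpm2 (ENSMUSG00000028464, chr4:43514711-43523765, minus strand), beta-tropomyosin, held 51.2 and 57.9 TPM in shScram, against 46.7 and 45.2 TPM in shFto preadipocytes. It stood at 23.7 and 25.3 TPM against 24.1 and 24.5 TPM in MCE cells, and at 35.4 and 32.3 TPM against 36.5 and 39.0 TPM in Diff. The lines differed by -0.24 ± 0.11 SE in Pre (limma adjusted p = 0.136) and by 0.15 ± 0.11 SE in Diff (limma adjusted p = 0.392), neither of which was called. With each library corrected for transcript GC content, Tpm2 was called lower in shFto preadipocytes (-0.71, limma adjusted p = 0.0048), and without replicate 1 of shScram Pre it was also called lower (-0.33, limma adjusted p = 0.0299). Both smooth muscle tropomyosins thus lay outside the group of genes that were higher in shFto cells. Of the other tropomyosins, Tpm4 was higher in shFto Diff by 0.67 ± 0.14 SE (limma adjusted p = 0.00909), and Tpm3 was lower in shFto preadipocytes by a difference of -0.47 (limma adjusted p = 0.0399), or -0.25 without replicate 1 of shScram Pre (limma adjusted p = 0.0268). In MCE cells the Tpm4 group means were 432.4 TPM in shScram and 956.5 TPM in shFto, and the share of Tpm1 among the 4 tropomyosins was 19.2% and 20.0% against 12.7% and 12.3%.

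Lmod1 (ENSMUSG00000048096, chr1:135324807-135368065, plus strand) encodes leiomodin 1, which starts new actin filaments in smooth muscle. Preadipocytes held 0.700 and 2.15 TPM in shScram, against 3.79 and 2.82 TPM in shFto (log2 difference 0.89 ± 0.28 SE, limma adjusted p = 0.0444). This call was lost in 16 of 21 alternatives, among them the fit without replicate 1 of shScram Pre (0.44, limma adjusted p = 0.172). At the MCE stage the values were 1.65 and 1.99 TPM in shScram, against 1.46 and 0.956 TPM in shFto. The shFto libraries thus already lay below the shScram ones at MCE. In Diff the values were 8.15 and 7.94 TPM in shScram, against 3.14 and 2.59 TPM in shFto. There Lmod1 was lower in shFto cells by a log2 difference of -1.23 ± 0.28 SE (limma adjusted p = 0.0142), the opposite direction to Acta2, Actg2, Tagln and Myl9.

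The calls of Lmod1 and Myl9 at the differentiation stage, unlike those of Acta2 and Tagln, were lost when any Diff library was left out. Their log2 differences stayed between -1.33 and -1.13 for Lmod1 and between 1.11 and 1.55 for Myl9. Those fits leave 1 library in a group and called fewer of all genes than the main fit. Without replicate 1 or replicate 2 of shScram Diff, or replicate 1 or replicate 2 of shFto Diff, neither Lmod1 (limma adjusted p = 0.0766, 0.072, 0.0546 and 0.0975) nor Myl9 (limma adjusted p = 0.156, 0.0628, 0.14 and 0.0857) was called. Actg2 was not called without replicate 2 of shScram Diff (limma adjusted p = 0.0628) or replicate 2 of shFto Diff (limma adjusted p = 0.0547). With a pseudocount of 0.1 the Diff differences of Lmod1 (limma adjusted p = 0.0524) and Myl9 (limma adjusted p = 0.167) were not called either, and the same held without a filter on low values (limma adjusted p = 0.0668 and 0.13). In preadipocytes Myl9 was not called without replicate 1 or replicate 2 of shFto Pre (limma adjusted p = 0.114 and 0.0664). In a fit on the 4 Pre libraries alone 0 of the 8 genes were called (limma adjusted p of 0.126 for Tagln to 0.724 for Tpm1, with 4 genes higher at an unadjusted p under 0.05). That smaller fit called 0 of all 15968 genes, and 2790 had an unadjusted p under 0.05.

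Other genes of the contractile apparatus did not follow Acta2 as a group. In a list of 30 further smooth muscle contraction and adhesion genes, 27 were tested. In preadipocytes 5 were higher and 4 lower in shFto cells, with a median difference of -0.02 (8 and 6 without replicate 1 of shScram Pre). In Diff 3 were higher and 5 lower, with a median of -0.09. With all 12 libraries fitted, the preadipocyte shares (18.5% and 14.8%) lie near those of all genes tested. Without replicate 1 of shScram Pre both preadipocyte shares of the list lay above those of all genes. The higher share in Diff (11.1%) also lies near that of all genes, and the lower share in Diff was 18.5%. Csrp1, a LIM protein of smooth muscle, was higher in shFto Diff by 0.62 ± 0.14 SE (limma adjusted p = 0.0134) and Rhoa, the GTPase that drives stress fibers, by 0.50 ± 0.14 SE (limma adjusted p = 0.0315). Svil, which links myosin and actin to membranes, fell by 1.13 on the log2 scale (limma adjusted p = 0.00194).

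In a list of 19 cytoplasmic and striated relatives of the members, 12 were tested and 1 was higher and 2 were lower in shFto preadipocytes (median 0.13), or 2 and 2 without replicate 1 of shScram Pre. These are 8.33% and 16.7% of the list, beside 15.9% and 12.3% of all genes tested. In Diff 2 were higher and 1 was lower (median 0.19; 16.7% and 8.33%, beside 11.9% and 9.31% of all genes), and those are Tagln2, Tpm4 and Cnn3. In the same list the group means of Myh9, the main non-muscle myosin, were 347.1 and 375.8 TPM in shScram and shFto preadipocytes.

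SRF and its cofactors were looked at as a list of 10 genes, 9 of them tested. In preadipocytes 3 were higher and 1 lower in shFto cells (median 0.75), which is 33.3% and 11.1% beside 15.9% and 12.3% of all genes tested. The counts were 3 higher and 0 lower without replicate 1 of shScram Pre (median 0.30). At the differentiation stage 2 were higher and 0 lower (median 0.17), or 22.2% and 0% beside 11.9% and 9.31%. Srf itself held 14.7 and 44.6 TPM in shScram, against 60.3 and 56.0 TPM in shFto preadipocytes, 29.3 and 28.0 against 34.7 and 36.0 TPM in MCE cells, and 32.1 and 26.2 against 28.3 and 32.5 TPM in Diff. It was not called at Pre or Diff, and its 2 shScram Pre libraries lay as far apart as the lines. Fhl2, a LIM cofactor that binds SRF, was higher in shFto Diff by 2.21 ± 0.16 SE (limma adjusted p = 2.83e-05) and Fhl1, its relative, by 1.24 ± 0.24 SE (limma adjusted p = 0.00675). Fhl2 held 44.5 and 53.2 TPM in shScram, against 131.5 and 120.1 TPM in shFto preadipocytes. Myocd, the cofactor that defines the smooth muscle lineage, was at most 0.0776 TPM in any library and was not tested.

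Genes of the myofibroblast matrix and its signals moved in both directions. Of 16 listed genes 15 were tested, with 7 higher and 1 lower in shFto preadipocytes (median 0.53) and 6 higher and 3 lower at the differentiation stage (median 0.54). The shares were 46.7% and 6.67% in Pre, beside 15.9% and 12.3% of all genes tested, and 40.0% and 20.0% in Diff, beside 11.9% and 9.31%. In Pre they were 53.3% and 20.0% without replicate 1 of shScram Pre. Tnc, the matrix protein tenascin C, was higher in shFto Diff by 3.38 ± 0.13 SE (limma adjusted p = 1.11e-06). Postn, the matrix protein periostin, fell by 1.83 on the log2 scale (limma adjusted p = 0.00143) and Cdh11, a cadherin of fibroblasts, fell by 1.27 (limma adjusted p = 0.00453). The list was made with earlier results of these data known.

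**Figure D3:**
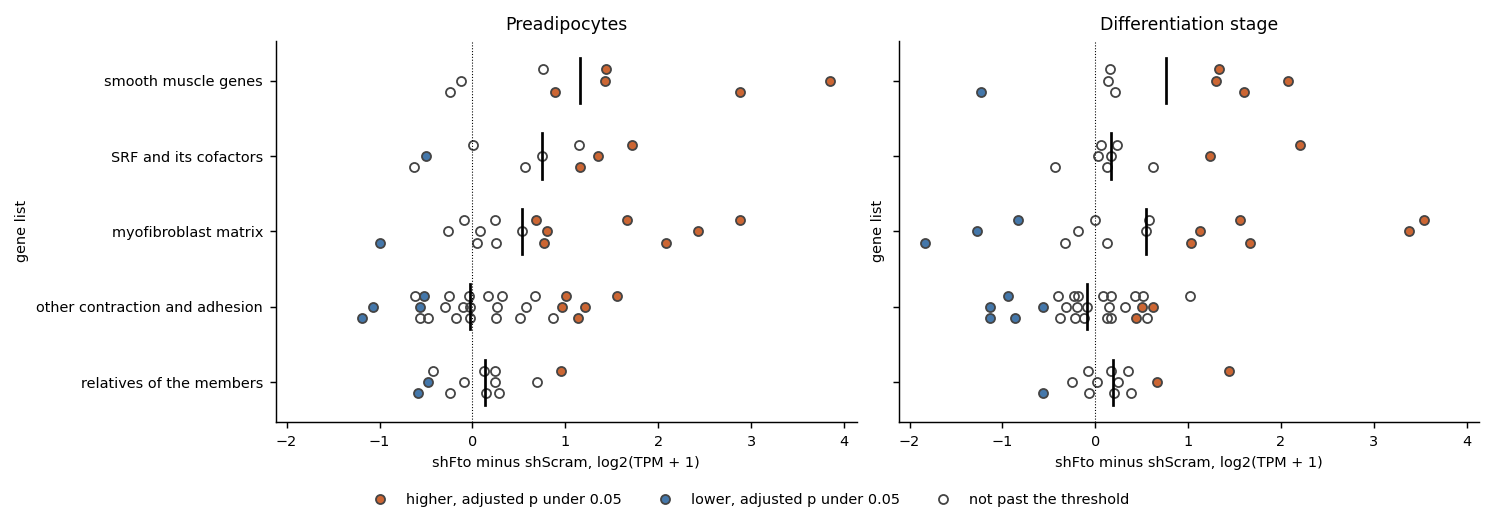
Difference between the lines (shFto minus shScram, log2(TPM + 1)) for the tested genes of 5 lists in preadipocytes and at the differentiation stage; each point is a gene, filled where the limma adjusted p is under 0.05, and the bar is the median of the list. The smooth muscle genes have the highest median in both panels (1.16 and 0.76), and the other contraction and adhesion genes are centred near 0 (-0.02 and -0.09).

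Between preadipocytes and the differentiation stage the contractile genes went down in both lines. In shScram cells 6 of the 8 tested genes fell and 1 rose, while 13.2% of all genes tested fell and 13.9% rose. In the fit without replicate 1 of shScram Pre 7 fell and 1 rose, against 21.2% and 16.1%. In shFto cells 6 fell and 0 rose, against 8.49% and 9.84% of all genes. The median change was -1.50 in shScram (0.07 over all genes tested) and -2.16 in shFto (-0.01 over all genes). The 2 contrasts share no library. Of the 12 tested cytoplasmic and striated relatives, 8 fell and 0 rose in shScram (66.7% and 0%, median -0.55). The median was -0.58 without replicate 1 of shScram Pre. In shFto 5 of these relatives fell and 0 rose (41.7% and 0%, median -0.38). Of the 27 tested further contraction and adhesion genes, 6 fell and 7 rose in each line. Their median change in shScram was -0.09, and -0.20 without replicate 1 of shScram Pre. A fall was thus not particular to the smooth muscle genes.

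Acta2 fell by 3.75 on the log2 scale in shScram (SE 0.21, limma adjusted p = 4.67e-06) and by 3.58 in shFto (SE 0.21, limma adjusted p = 8.77e-06). The Diff mean was 7.09% of the Pre mean in shScram and 8.29% in shFto, so a like fraction was left in each line. Myl9 fell by 3.27 in shScram (limma adjusted p = 0.00019) and by 3.38 in shFto (limma adjusted p = 0.000234). Tagln fell by 1.86 in shScram (limma adjusted p = 0.0029) and by 3.64 in shFto (limma adjusted p = 8.64e-05), and Actg2 by 1.46 (limma adjusted p = 0.00336) and 3.04 (limma adjusted p = 7.08e-05). By linear means Actg2 kept 9.96% in shScram and 8.53% in shFto, and Tagln kept 14.0% and 7.09%. Without replicate 1 of shScram Pre the shScram change was -4.03 for Acta2, -3.76 for Myl9, -2.43 for Tagln and -1.78 for Actg2, all called (limma adjusted p of 6.65e-08 to 0.000332).

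Tpm1 fell by 1.55 in shScram (limma adjusted p = 1.64e-05) and by 1.29 in shFto (limma adjusted p = 6.67e-05). Tpm2 fell by 0.67 in shScram (limma adjusted p = 0.00281), and its change in shFto was -0.28 (limma adjusted p = 0.135). Cnn2 changed by -0.37 in shScram (limma adjusted p = 0.32) and fell by 0.92 in shFto (limma adjusted p = 0.0418), a call that was lost in 12 of 22 alternatives. Without replicate 2 of shScram Pre the Cnn2 change in shScram was 0.14 (limma adjusted p = 0.194), and without replicate 1 it was -0.89 and called (limma adjusted p = 2.39e-05). Lmod1 went against the others: it rose by 1.97 ± 0.28 SE in shScram (limma adjusted p = 0.00102) and changed by -0.15 ± 0.28 SE in shFto (limma adjusted p = 0.772). Without replicate 1 of shScram Pre the shScram changes were 1.52 for Lmod1, -1.58 for Tpm1 and -0.76 for Tpm2, all called (limma adjusted p = 0.000475, 4.59e-07 and 0.000174). Of the 8 tested members, Lmod1 was the only one that rose in shScram cells. Myh11, which was not tested, went from a mean of 0.128 to 0.875 TPM in shScram and from 0.201 to 0.143 TPM in shFto.

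The lowest point differed between genes and lines. In shScram cells the means of Acta2, Myl9, Cnn2, Tpm1 and Tpm2 were lowest at the MCE stage and higher again in Diff. The rise was 3.40-fold for Acta2, 10.1-fold for Myl9, 2.27-fold for Cnn2, 1.41-fold for Tpm1 and 1.38-fold for Tpm2. The size of the Myl9 ratio is uncertain, since its MCE mean was 0.262 TPM, from libraries at 0 and 0.525 TPM. In shFto cells Cnn2, Tpm1 and Tpm2 followed the same course, with Diff means 1.91-fold, 1.46-fold and 1.56-fold the MCE means. Acta2, Actg2, Tagln and Myl9 of shFto cells went on down, with MCE means that were 1.86-fold, 3.20-fold, 3.17-fold and 2.21-fold the Diff means. Actg2 and Tagln did not rise after MCE in shScram cells either. There the Actg2 mean was 0.248 TPM at both stages, and the Tagln mean went from 1.05 to 0.90 TPM. The course thus differed between the lines for Acta2 and Myl9. Lmod1 of shFto cells was lowest at MCE, with means of 3.30, 1.21 and 2.87 TPM in Pre, MCE and Diff. These steps are means of 2 libraries without a test.

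Whether the knockdown effect differed between preadipocytes and the differentiation stage was tested as an interaction. The effect was lower at the differentiation stage for 3 of the 8 genes and higher for 0 (3 and 1 at an unadjusted p under 0.05), while 3.61% of all genes tested were called lower and 4.06% higher. The difference of the effects was -1.58 ± 0.36 SE for Actg2 (limma adjusted p = 0.0325), -1.78 ± 0.45 SE for Tagln (limma adjusted p = 0.0475) and -2.12 ± 0.40 SE for Lmod1 (limma adjusted p = 0.0144). For Actg2 and Tagln the effect stayed positive and was smaller on the log2(TPM + 1) scale, and for Lmod1 it changed sign. For Acta2 the difference of the effects was 0.18 ± 0.29 SE (limma adjusted p = 0.725) and for Myl9 -0.11 ± 0.49 SE (limma adjusted p = 0.906). For Cnn2 it was -0.54 ± 0.37 SE, for Tpm1 0.26 ± 0.15 SE and for Tpm2 0.39 ± 0.16 SE. None of these were called in the main fit. With the correction for transcript GC content the Tpm2 value was 0.75 and called (limma adjusted p = 0.033, and 0.0476 with the replicate block). The Cnn2 value was -0.03 without replicate 1 and -1.05 without replicate 2 of shScram Pre, so 1 library sets its size. With a pseudocount of 0.1 in place of 1 the value for Actg2 was -0.56 and for Tagln -1.23, and neither was called (limma adjusted p = 0.762 and 0.26). The linear shFto to shScram ratio was 9.68 in Pre and 8.30 in Diff for Actg2, and 15.3 and 7.74 for Tagln. Without replicate 1 of shScram Pre the values were -1.26 for Actg2, -1.21 for Tagln, -1.67 for Lmod1 and 0.48 for Tpm2. That fit leaves 1 library in the group and called a larger share of all genes than the main fit. With 1 library left out in turn the number of calls lay between 0 and 4, and it was 0 without replicate 1 of shFto Pre, either shScram Diff library or replicate 2 of shFto Diff.

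**Figure D4:**
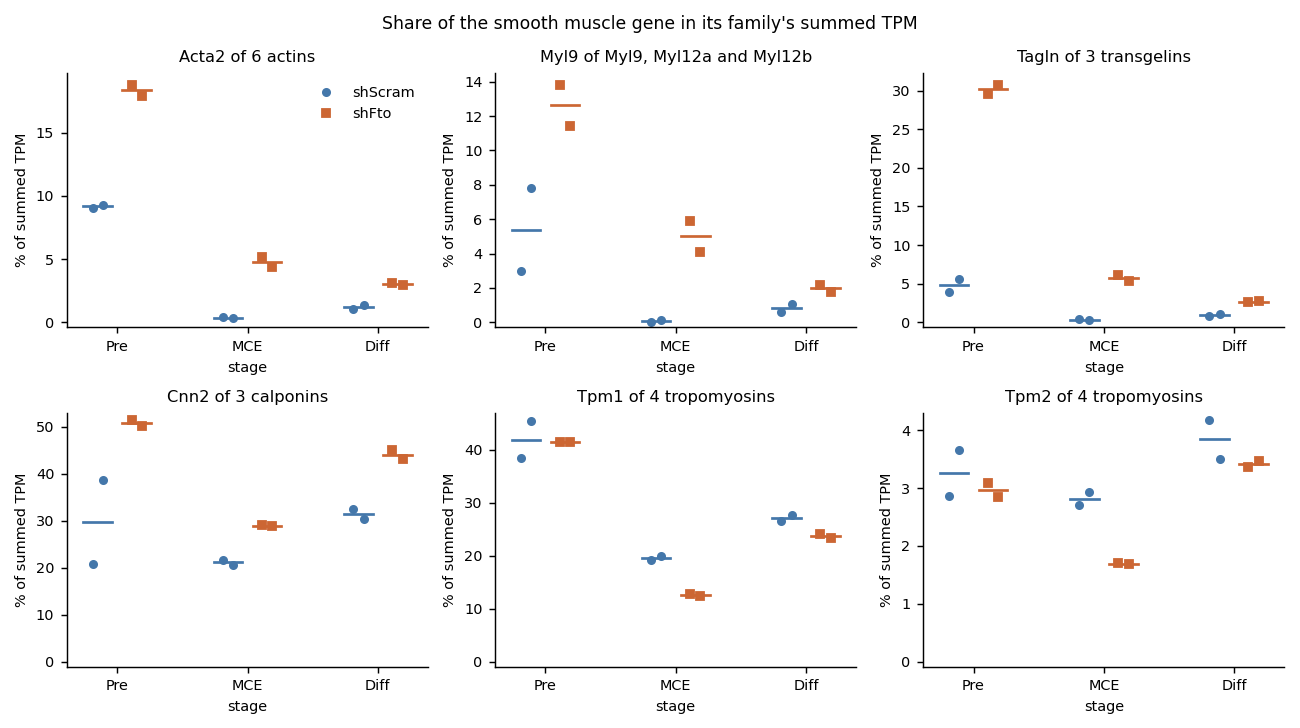
Share of 6 smooth muscle genes in the summed TPM of their families (percent, linear axes from 0), by stage; circles are shScram libraries, squares are shFto libraries and bars are means of 2. The shares of Acta2, Myl9, Tagln and Cnn2 do not overlap between the lines at any stage and are higher in shFto. Those of Tpm1 and Tpm2 overlap in Pre and are lower in shFto without overlap at MCE and Diff.

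Over all 12 libraries, Myl9 had the course most like that of Acta2 among the members (Pearson's r of log2(TPM + 1) 0.993), followed by Actg2 (0.873), Tagln (0.865), Tpm1 (0.805), Cnn2 (0.778) and Tpm2 (0.684). Lmod1 stood at -0.197. Of 10799 other genes with a mean of at least 5 TPM, the nearest were Serpinf1 (0.986), Lonrf1 (0.980), Cmpk2 (0.975), Tor1aip2 (0.975) and Gas2 (0.971), given as a description over libraries that share 6 group means. Serpinf1 encodes a secreted serpin, also known as PEDF, and Gas2 a protein that binds actin filaments in growth-arrested cells. Serpinf1 held 1293 and 1247 TPM in shScram, against 1665 and 1586 TPM in shFto preadipocytes, and 409.9 and 368.0 against 920.8 and 923.5 TPM at the MCE stage. These genes were picked from all genes for their likeness, so the values of r are no test.

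Markers of other cell types were read beside these results. The summed TPM of 7 fibroblast and preadipocyte markers was 5887 to 9424 in all libraries, and each of the 7 reached 1 TPM. Of 7 pericyte and vascular smooth muscle markers, Kcnj8 and Abcc9 were at 0 in all libraries, Rgs5, Cspg4 and Myocd stayed under 1 TPM, and Notch3 and Mcam reached it. The sum of the 7 was 0.207 and 1.31 TPM in shScram, against 11.2 and 13.3 TPM in shFto preadipocytes, 1.43 and 1.40 against 5.59 and 5.78 TPM in MCE cells, and 3.37 and 3.92 against 15.8 and 16.1 TPM in Diff. It moved with the line at each stage, through Notch3 and Mcam in Pre and MCE. In Diff Notch3 held 0.940 and 1.30 against 14.1 and 15.0 TPM, while Mcam was lower in shFto (2.1 and 2.38 against 1.37 and 0.835 TPM). Its part in the differences of Acta2, Actg2, Tagln and Myl9 was not tested. Of the 7 markers, Kcnj8, Abcc9, Rgs5, Cspg4 and Myocd were thus at or near 0 in shFto cells, while the Notch3 mean was 14.6 TPM in shFto and 1.12 TPM in shScram in Diff, and the Mcam mean in Pre was 19.9-fold that of shScram.

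Of 6 skeletal muscle markers, Myod1 and Myf5 were at 0 and Myog, Ckm and Myh3 stayed under 1 TPM, so that the sum of 3.28 to 13.3 TPM was nearly all Des. Of 4 endothelial markers none reached 1 TPM (Kdr at 0, sum at most 1.15 TPM), and of 4 macrophage markers Adgre1 was at 0 and Ptprc under 1 TPM (sum 0.515 to 4.01 TPM). The sum of 6 adipocyte markers was 1403 and 1383 TPM in shScram Diff and 456.4 and 423.6 TPM in shFto Diff. It was 185.4 and 128.5 against 267.0 and 298.7 TPM in preadipocytes. Most of the preadipocyte sum was Lpl (174.0 and 111.8 against 247.2 and 281.0 TPM), while Adipoq, Plin1 and Cidec stayed under 1 TPM there. In Diff Lpl held 302.9 and 333.3 TPM in shScram, against 282.5 and 268.6 TPM in shFto, so it made up little of the fall of the sum. Fewer adipocyte transcripts therefore went with the higher contractile genes of shFto Diff, and the part of this in the Diff differences was not tested. In these bulk libraries more cells that express a gene and more RNA per cell cannot be told apart.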

How the data were processed

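Total RNA of 12 samples of 3T3-L1 cells was fragmented and gel-selected, and libraries were sequenced by the authors. Per the labels and the study's methods, the authors used Trim Galore 0.6.5 for trimming, HISAT2 2.1.0 for alignment (GRCm38) and StringTie 2.1.4 with Ensembl 102 for abundance, and the deposited unit is TPM. The authors called their own DEGs with DESeq2 1.30.1, and those results were not used. TPM holds no depth, so no counting error is given, and precision is limited by having 2 libraries in each group.

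The members, gene lists, markers and tests were chosen with earlier results of these data known. Genes reaching 1 TPM in 2 or more of 12 libraries (15968 of 55487) were fitted on log2(TPM + 1) with limma 3.58.1 in R 4.3.3 (1 mean per group over all 12 libraries, 6 residual degrees of freedom, trend, two-sided, Benjamini-Hochberg over all genes tested). The script was tested on simulated data. The contrasts tested were shFto against shScram in Pre and in Diff, Pre to Diff in each line, and their interaction. Named genes are all 10 members, and from each of 4 lists at most the 2 highest and 2 lowest called at Diff, with Srf and Myocd, and the 5 genes most like Acta2. Of these, 2 genes are not reported here. Family relatives, Fhl2, Myh9 and the markers behind a sum are also given, some of them singled out after their values were seen. Alternatives were the pseudocount, filters on low values, scaling, the libraries fitted, the variance trend, the replicate number as a block, a correction for transcript GC content (loess, 15928 genes with a value), the study's thresholds and each library left out. Coordinates and transcripts came from GENCODE M21 (99.4% of gene IDs found), and promoters from RefSeq. Python 3.11.15 was used for the other steps. No 2 libraries held identical values.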

Additional observations from a re-analysis of the deposited data

Results flagged for a closer look

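The effect of the knockdown differed between preadipocytes and the differentiation stage for 3 of the 8 tested genes, by limma's test of the interaction. The difference of the 2 effects on the log2(TPM + 1) scale was -1.58 for Actg2 (limma adjusted p = 0.0325), -1.78 for Tagln (limma adjusted p = 0.0475) and -2.12 for Lmod1 (limma adjusted p = 0.0144). With a pseudocount of 0.1 the values for Actg2 and Tagln were -0.56 and -1.23 and not called (limma adjusted p = 0.762 and 0.26), and the linear shFto to shScram ratio of Actg2 was 9.68 in Pre and 8.30 in Diff. All 3 calls were lost without a filter on low values and in a fit on the 8 libraries of the contrast alone.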

How the results depend on the processing

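Over the tested values of the 8 genes, 760 of the values recomputed under an alternative kept their direction and side of the threshold, 85 were no longer called, 18 became called and 12 changed sign. With a pseudocount of 0.1, 3 genes were called in preadipocytes (5 in the report), 3 at the differentiation stage (5), and 1 in the interaction (3). Without a filter on low values the preadipocyte count was 3 and the interaction count 0 (2 higher and 4 lower by limma at an unadjusted p under 0.05, over all 10 genes). With only the libraries of the contrast fitted the counts were 0 in preadipocytes, 3 for the shScram step (7) and 0 for the interaction (3 lower by limma at an unadjusted p under 0.05), with fewer libraries behind the spread. With 1 library left out in turn the counts were 3 to 6 in preadipocytes (3 without either shFto Pre library), 2 to 6 at the differentiation stage (3 without replicate 1 and 2 without replicate 2 of either Diff group), 7 to 8 for the shScram step, 5 to 7 for the shFto step and 0 to 4 for the interaction (0 without replicate 1 of shFto Pre, either shScram Diff library or replicate 2 of shFto Diff, and 1 without replicate 2 of shFto Pre, replicate 1 of shFto Diff or either shFto MCE library). Where a group kept 1 library, it was assumed to vary like the others. The number of all genes called also differed widely between these alternatives, so the counts of members are not to be read alone.

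The values that changed sign were small and not called. They were Cnn2 in the shScram step, 0.136 without replicate 2 of shScram Pre (range -0.885 to 0.136 with 1 library left out), Lmod1 in the shFto step, 0.0124 without replicate 1 of shFto Pre (range -0.312 to 0.0124), and the Acta2 interaction, -0.102 without replicate 2 of shScram Pre and -0.00885 without replicate 1 of shScram Diff (range -0.102 to 0.458). The Myl9 interaction was 0.135 with a pseudocount of 0.1, 0.0543 after quantile normalization, 0.282 with a GC correction, with or without the replicate block, 0.381 without replicate 1 of shScram Pre, 0.0152 without replicate 1 of shFto Pre, 0.113 without replicate 2 of shScram Diff and 0.0272 without replicate 2 of shFto Diff (range -0.598 to 0.381 with 1 library left out). The cause was not tested.

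There was little sign that the replicate numbers pair the libraries: 2 of 15 pairs of groups had deviations correlated over 0.1 (range -0.29 to 0.172). The deviation of shScram Pre followed GC content, so these correlations cannot show whether libraries with the same number shared a culture or batch. With the replicate block the counts were 4 in preadipocytes, 5 at the differentiation stage, 7 and 5 for the shScram and shFto steps and 2 for the interaction. The calls lost were Lmod1 in preadipocytes, Cnn2 in the shFto step and Tagln in the interaction. The depth behind each TPM is unknown, so how far counting error sets the low values of Actg2, Lmod1 and Myl9 cannot be given.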
